A study of Mus musculus with 12 samples.

Results

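The voltage-gated sodium channels of central neurons and the FGF homologous factors that bind them were followed in the mouse hippocampus through 9 genes: the alpha subunits Scn1a, Scn2a, Scn3a and Scn8a, the beta subunit Scn2b, and the factors Fgf11, Fgf12, Fgf13 and Fgf14. They are 9 of 54532 genes in the tables and hold 62 of 137862 annotated transcripts. The genes were taken by symbol and not by their values, and all 9 passed the filter on low values.

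The study sequenced ribosome-depleted total RNA of the hippocampus in 12 libraries from mice aged 3 months, with 3 libraries in each of 4 groups. These were female controls, female Atrx-cKO (a conditional knockout of the chromatin remodeller gene Atrx), male controls and male Atrx-cKO. By its title the series deleted the gene in neurons. The driver of the recombinase, the deleted exons and the alleles of the controls are not given in the sources used here. According to the design text there were 3 pairs of mice for each sex, which reads as 1 mouse for a library. What makes a pair is not stated, so the p-values measure the spread between these libraries.

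A sodium channel is built on 1 large alpha subunit that forms the pore and carries the voltage sensors, joined by smaller beta subunits that change its gating and its place in the membrane. Neurons concentrate these channels at the axon initial segment, where the action potential starts, and at the nodes of Ranvier. FGF homologous factors resemble fibroblast growth factors but are kept inside the cell, where they bind the tail of the alpha subunit and set how fast the channel inactivates and how much of it reaches the axon.

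Mapped sequence ran from 1.16 to 8.64 Gb a library. Receptor genes of the nose (olfactory and vomeronasal), silent in the brain, served to measure background. Their median on the FPKM scale was 0.0863 to 0.602 in female controls and 0.305 to 2.25 in female cKO libraries. It was 0.00664 to 0.0276 in male controls and 0.0178 to 0.286 in male cKO libraries. FPKM relates the fragments of a transcript to its length and to the size of the library. This background was therefore subtracted in each library, and the level used below, called the corrected level, is per base of exon on the FPKM scale, so that genes of different length can be compared. Atrx had 55.6 to 63.6 deposited FPKM in control females against 31.0 to 38.2 in cKO females, and 40.2 to 46.9 in control males against 32.3 to 36.5 in cKO males, so no cKO library reached a control of its sex. The mean of both differences was -16.5 FPKM (exact two-sided permutation p = 0.005, the smallest it can give). On corrected levels limma gave a log2 difference of -0.87 in females (adjusted p = 0.02) and -0.47 in males (adjusted p = 1).

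In outline, no channel or FGF homologous factor gene passed the test between the genotypes in either sex. Fgf11 was lower in all 3 cKO females than in any control female without passing, a pattern that 7.49% of all genes tested had. The alpha subunits Scn8a and Scn3a passed as lower in control males than in control females, where 5.16% of all genes did. Neither passed without background subtraction. Scn8a passed in 19 of 21 alternative settings and Scn3a in 10. The transcripts assigned to Scn2a, Scn2b and Fgf12 switched between libraries of 1 group.

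Scn8a (ENSMUSG00000023033, protein coding, plus strand, chr15:100869858-101045938 on GRCm38) encodes Nav1.6, the main sodium channel of the mature axon initial segment and node. Its span is 176 kb and its 20 annotated transcripts cover 15766 bases of exon.

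Scn8a had a corrected level of 20.0, 18.1 and 18.7 in control females 1 to 3 and 18.2, 20.5 and 17.0 in cKO females 1 to 3. In males it had 11.1, 10.6 and 8.99 in controls and 10.04, 10.5 and 8.64 in cKO. The 6 females lay above the 6 males with no overlap, while the genotypes overlapped within each sex. Over all genes tested, 27.5% had every control male below every control female on corrected levels. The share with all 6 females above all 6 males was not counted. Group means were 18.9 ± 0.986, 18.6 ± 1.78, 10.2 ± 1.11 and 9.73 ± 0.975 (SD, n = 3 each, in the order control female, cKO female, control male, cKO male). The fitted level in control males was 0.552 times that in control females, a log2 difference of -0.86 (SE 0.105, limma adjusted p = 0.00261). The genotype differences were -0.03 on the log2 scale in females (95% interval -0.26 to 0.21, limma adjusted p = 0.889) and -0.07 in males (-0.30 to 0.16, adjusted p = 1).

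Scn3a (ENSMUSG00000057182, minus strand, chr2:65457118-65567627) encodes Nav1.3, the alpha subunit that prevails before birth and declines afterwards. Its corrected level was 7.46, 7.64 and 6.83 in control females and 7.71, 6.44 and 7.54 in cKO females. It was 4.72, 5.26 and 4.72 in control males and 5.09, 7.06 and 4.39 in cKO males. Every control male lay below every control female, as in 27.5% of all genes tested. cKO male 2 alone among the males reached the female range. The sex difference among controls was -0.53 on the log2 scale (SE 0.144, limma adjusted p = 0.0372). It fell short of the threshold with 1 library left out in 7 of 12 cases, with adjusted p up to 0.13. Without background subtraction the sign turned (0.011, limma adjusted p = 0.98). The genotype differences were -0.02 in females (95% interval -0.33 to 0.30) and 0.13 in males (-0.19 to 0.45).

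Scn2a (ENSMUSG00000075318, plus strand, chr2:65620771-65767447) encodes Nav1.2, the alpha subunit of immature axons that stays in the proximal initial segment of excitatory neurons. It was the most abundant of the 4 alpha subunits in every library, with 47.2% to 60.4% of their summed corrected level. Control females had 41.1, 33.7 and 48.8, and cKO females 37.8, 40.2 and 41.0. Control males had 28.9, 25.4 and 25.5, and cKO males 22.6, 41.9 and 23.4. All control males lay below all control females, as in 27.5% of all genes tested. The sex difference of -0.61 on the log2 scale did not pass (limma adjusted p = 0.0879). cKO male 2 stood at the female level, as it did for Scn3a, and its background was the highest of the 6 male libraries.

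Scn1a (ENSMUSG00000064329, minus strand, chr2:66270778-66440840) encodes Nav1.1, which carries much of the sodium current of fast-spiking interneurons. Its corrected level was 10.6, 10.5 and 10.9 in control females, and 10.1, 13.1 and 11.2 in cKO females. It was 9.43, 8.24 and 8.02 in control males and 10.2, 9.92 and 10.2 in cKO males. All 3 cKO males lay above all 3 control males, a log2 difference of 0.23 (95% interval 0.02 to 0.44) that did not pass (limma adjusted p = 1). Over all genes tested, 7.44% had the cKO males above the control males without overlap. All control males lay below all control females, as in 27.5% of all genes tested (log2 difference -0.30, limma adjusted p = 0.0683). Scn1a made up 13.7% of the 4 alpha subunits in control females and 14.9% in cKO females, against 17.0% and 19.1% in the males.

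Scn8a made up 24.4% of the 4 alpha subunits in control females and 24.2% in cKO females, against 20.3% and 18.2% in the males. Its share lay between 22.0% and 25.8% in the 6 females and between 15.2% and 21.5% in the 6 males. The shares of Scn2a and Scn3a overlapped between all groups. Control means were 52.5% and 52.9% for Scn2a in females and males, and 9.46% and 9.78% for Scn3a.

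Scn2b (ENSMUSG00000070304, plus strand, chr9:45117782-45130070) encodes a beta subunit that is bound to the alpha subunit by a disulphide bridge. It had the highest mean corrected level of the 9 genes in all 4 groups. Control females had 61.1, 59.2 and 60.1, which is a narrow range, and cKO females had 38.6, 64.7 and 71.6, which spans it on both sides. Control males had 43.7, 43.2 and 23.9, and cKO males 40.3, 52.6 and 33.5. The genotype difference in females depended on the scale. Corrected levels are divided by a scaling factor for each library, and deposited FPKM is not. That factor was 0.664 and 0.639 in cKO females 2 and 3 and between 1.02 and 1.15 in the other libraries. Without these factors the median log2 difference of all genes in females was -0.46. On deposited FPKM summed per gene, the cKO females had 42.5, 49.3 and 48.0 and all lay below the control females with 75.9, 68.3 and 66.5, a pattern that 7.81% of all genes tested had on that scale. On corrected levels the log2 difference was -0.09 (95% interval -0.70 to 0.51, limma adjusted p = 0.846). The control males lay below the control females on both scales, with a log2 difference of -0.75 on corrected levels that did not pass (limma adjusted p = 0.108). Of all genes tested, 27.5% had this pattern on corrected levels and 36.0% on deposited FPKM.

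**Figure D1:**
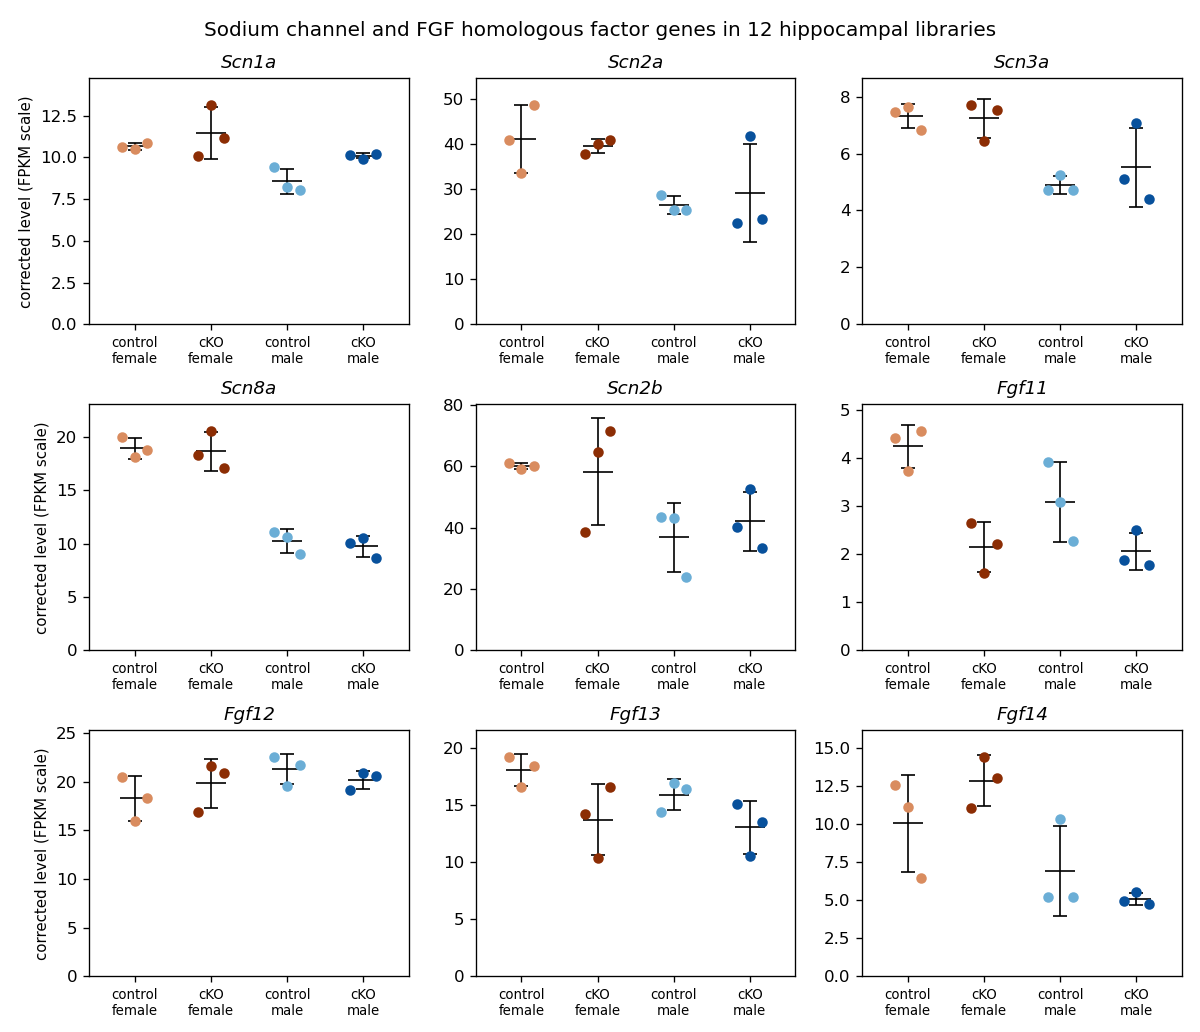
Corrected level (per base of exon, on the FPKM scale, background subtracted and scaled) of the 9 genes on linear axes from 0, with 1 point per library, a line for the mean and bars for 1 SD in each group (n = 3). Scn8a separates the 6 females (17.0 to 20.5) from the 6 males (8.64 to 11.1), and Fgf11 is lower in each cKO female (1.61 to 2.65) than in each control female (3.74 to 4.57). Over all genes tested, 27.5% had the control males below the control females without overlap, and 7.49% the cKO females below the control females.

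The FGF homologous factors differ most in their first coding exon, which is chosen by alternative promoters and decides how a factor acts on the channel. The long forms that begin with the exons below for Fgf11, Fgf12 and Fgf14 transcript ENSMUST00000026631 carry a stretch known to block the channel pore from the inside. ENSMUST00000095529 of Fgf14 begins with another exon. The sequences are shown because the tables assign Fgf14 mostly to this other start and Fgf12 mostly to a long form. They are coding strands from GENCODE M21 on GRCm38, all on the minus strand, and capitals mark the start codon.
Fgf11 (ENSMUST00000102585), chr11:69801433-69801625: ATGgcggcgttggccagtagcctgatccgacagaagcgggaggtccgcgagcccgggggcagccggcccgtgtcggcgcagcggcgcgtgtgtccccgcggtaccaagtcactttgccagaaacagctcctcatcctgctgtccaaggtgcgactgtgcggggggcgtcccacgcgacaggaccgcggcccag
Fgf12 (ENSMUST00000100024), chr16:28444993-28445191: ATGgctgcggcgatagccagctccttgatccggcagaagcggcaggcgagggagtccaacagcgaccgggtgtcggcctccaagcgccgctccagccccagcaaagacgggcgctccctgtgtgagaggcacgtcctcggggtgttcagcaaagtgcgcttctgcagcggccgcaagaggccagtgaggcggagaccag
Fgf14 (ENSMUST00000026631), chr14:124192329-124192521: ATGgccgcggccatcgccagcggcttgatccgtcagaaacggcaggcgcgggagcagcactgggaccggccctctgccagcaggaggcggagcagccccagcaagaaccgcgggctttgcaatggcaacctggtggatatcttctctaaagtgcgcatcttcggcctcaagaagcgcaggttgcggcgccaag
Fgf14 (ENSMUST00000095529), chr14:124676510-124676717: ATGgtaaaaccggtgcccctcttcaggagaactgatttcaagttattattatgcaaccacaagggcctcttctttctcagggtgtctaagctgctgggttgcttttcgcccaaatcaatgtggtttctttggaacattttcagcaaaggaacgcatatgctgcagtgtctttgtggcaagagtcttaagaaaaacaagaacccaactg
In global alignments, the exons of Fgf12 and Fgf14 ENSMUST00000026631 were identical at 67.9% of 193 aligned bases, and those of Fgf11 and Fgf12 at 62.1% of 190. The 2 first exons of Fgf14 itself were identical at 52.2% of 182.

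Fgf11 (ENSMUSG00000042826, minus strand, chr11:69796068-69801857), the least studied of the 4 factors, had the lowest mean of the 9 genes in all 4 groups and spans 5.79 kb. Its corrected level was 4.43, 3.74 and 4.57 in control females and 2.65, 1.61 and 2.21 in cKO females. It was 3.92, 3.09 and 2.27 in control males and 1.88, 2.51 and 1.79 in cKO males. No cKO female reached a control female, and over all genes tested 7.49% had the cKO females below the controls without overlap. In males cKO male 2 stood above control male 3, so the groups overlapped. Over all genes 4.66% had the cKO males below the controls without overlap. Group means were 4.25 ± 0.447 and 2.16 ± 0.524 in females and 3.09 ± 0.824 and 2.06 ± 0.394 in males (SD, n = 3, control then cKO). The log2 difference was -0.85 in females (SE 0.206, 95% interval -1.31 to -0.40), which did not pass (limma adjusted p = 0.114). In males it was -0.47 (95% interval -0.93 to -0.02, limma adjusted p = 1). The mean of both was -0.66 (SE 0.145, 95% interval -0.98 to -0.34, limma adjusted p = 0.222), and their difference, male minus female, was 0.38 (adjusted p = 0.593).

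The female difference of Fgf11 rested on no single control, but passed in 1 case: without cKO female 1 it was -0.98 with a limma adjusted p of 0.00533, in a fit where 5768 of all genes passed. That fit leaves the 2 libraries of highest background, cKO females 2 and 3, against the controls. With only cKO female 1 kept, the difference was -0.59 (limma adjusted p = 1, with the spread of this lone library taken from the other groups). On deposited FPKM, to which no scaling factor is applied, the female groups did not overlap either. Controls had 5.22, 4.40 and 5.35 and cKO females 3.27, 3.06 and 4.37, where cKO female 3 came close to control female 2. Of all genes tested, 7.81% lay lower in this way on that scale. The background subtracted from these libraries ran from 0.0863 to 2.25, which is not small beside the level of Fgf11, and its part in the difference was not tested.

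Fgf13 (ENSMUSG00000031137, minus strand, chrX:59062145-59568071) is X-linked and encodes a factor that binds microtubules as well as channels. It had 19.2, 16.5 and 18.4 in control females, and 14.2, 10.4 and 16.6 in cKO females. Control males had 14.4, 16.9 and 16.4, and cKO males 15.1, 10.5 and 13.5. cKO replicate 2 was the lowest library in each sex, and only cKO female 3 and cKO male 1 reached the control range of their sex. The log2 differences were -0.41 in females (95% interval -0.78 to -0.04, limma adjusted p = 0.145) and -0.29 in males (-0.66 to 0.08, adjusted p = 1), with a mean of -0.35 (-0.61 to -0.09, adjusted p = 0.222). On deposited FPKM, to which no scaling factor is applied, the female groups did not overlap. Controls had 38.7, 35.1 and 37.7 against 30.1, 19.5 and 25.6 in cKO (7.81% of all genes tested lay lower in this way on that scale). Between the control sexes the log2 difference was -0.18 (limma adjusted p = 0.536).

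Fgf12 (ENSMUSG00000022523, minus strand, chr16:28160098-28753068) was the factor of highest mean level in all 4 groups. Its corrected level was 20.5, 16.0 and 18.3 in control females and 16.9, 21.6 and 20.9 in cKO females. It was 22.6, 19.6 and 21.8 in control males and 19.1, 20.8 and 20.5 in cKO males. All 4 groups overlapped. The log2 differences between genotypes were 0.11 in females (limma adjusted p = 0.521) and -0.08 in males (adjusted p = 1). Of the 9 genes only Fgf12 had a positive difference between control males and control females, 0.22 on the log2 scale (limma adjusted p = 0.244).

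Fgf14 (ENSMUSG00000025551, minus strand, chr14:123977907-124677127), mutated in a form of spinocerebellar ataxia, spans 699 kb, the most of the 9. It had 12.5, 11.1 and 6.44 in control females and 11.1, 14.4 and 13.0 in cKO females. Control males had 5.20, 10.3 and 5.24, and cKO males 4.95, 5.55 and 4.76. A control library of each sex stood apart, control female 3 low and control male 2 high. The log2 differences were 0.38 in females (limma adjusted p = 0.361) and -0.34 in males (adjusted p = 1). The male effect minus the female effect was -0.73 (95% interval -1.58 to 0.13, limma adjusted p = 0.584). Its exons share 220 bases, 5.26% of their length, with the antisense gene Gm28932. That gene had a mean corrected level of 0.0539.

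As shares of the 4 factors, Fgf11 made up 8.42% in control females and 4.48% in cKO females, against 6.55% and 5.12% in the males. Fgf12 made up 36.1% and 40.8% in females and 45.3% and 50.0% in males. Fgf13 took 35.8%, 28.2%, 33.7% and 32.2%, and Fgf14 took 19.7%, 26.5%, 14.5% and 12.6%.

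Put in order of corrected level, control females ran Scn2b, Scn2a, Scn8a, Fgf12, Fgf13, Scn1a, Fgf14, Scn3a and Fgf11. Neighbours whose libraries overlapped were Scn8a with Fgf12, Fgf12 with Fgf13, Scn1a with Fgf14, and Fgf14 with Scn3a. In control males the order was Scn2b, Scn2a, Fgf12, Fgf13, Scn8a, Scn1a, Fgf14, Scn3a and Fgf11. There the overlapping neighbours were Scn2b with Scn2a, Scn8a with Scn1a, Scn1a with Fgf14, and Fgf14 with Scn3a. Scn8a thus came before Fgf12 and Fgf13 in control females and after them in control males.

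Across the genotype comparison as a whole, 0 of the 9 genes passed the limma test in females, where 0.0729% of the 15087 genes tested did (0.0265% higher and 0.0464% lower), and 0 passed in males, where 0.00663% did. At an unadjusted p under 0.05, 2 of the 9 passed in females (Fgf11 and Fgf13), beside 29.4% of all genes, and 2 in males (Scn1a and Fgf11), beside 2.33%. For the mean of both sexes 0 of the 9 passed (0.0331% of all genes, 0.0133% higher and 0.0199% lower), and 3 did so at an unadjusted p under 0.05 (Scn1a, Fgf11 and Fgf13), beside 20.4% of all genes. For the male effect minus the female effect 0 of the 9 passed, and 0% of all genes did, with 941 genes at an unadjusted p under 0.05 and none of the 9 among them. The median log2 difference of the 9 was -0.03 in females and -0.07 in males, beside 0.02 and 0.03 over all genes tested.

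**Figure D2:**
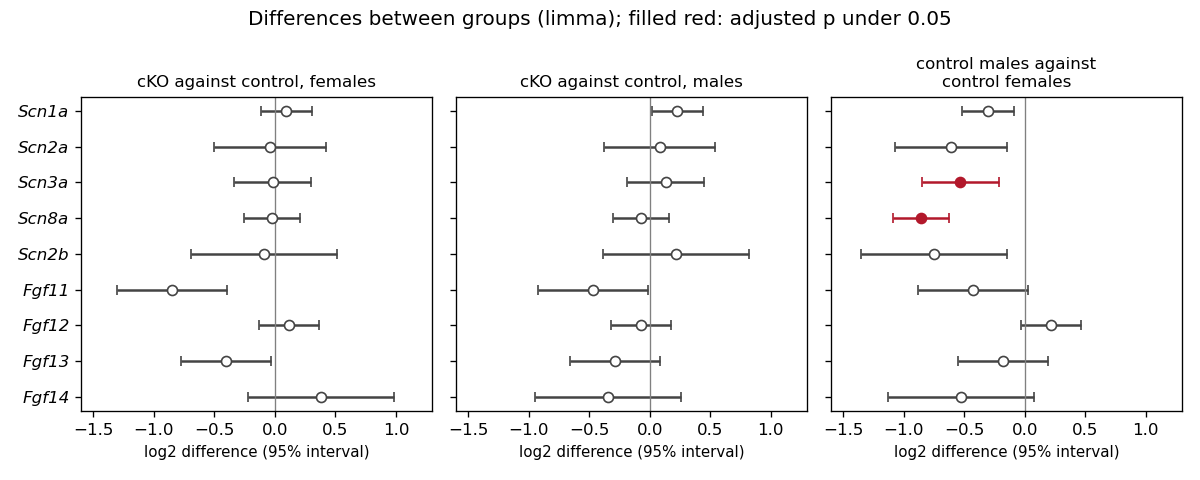
Log2 difference of each gene with its 95% interval from limma, for cKO against control in females and in males and for control males against control females, on linear axes. No point passed between the genotypes, and Scn3a (-0.53) and Scn8a (-0.86), drawn in red, passed between the control sexes.

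Between the control sexes 2 of the 9 passed, Scn8a and Scn3a, both lower in males, where 5.16% of all genes were lower and 6.54% higher by the same rule (11.7% in either direction). For 5 of the 9, Scn1a, Scn2a, Scn3a, Scn8a and Scn2b, every control male lay below every control female, on corrected and on deposited values alike. Over all genes tested 27.5% had this pattern on corrected levels and 36.0% on deposited FPKM. Of the 4 factors Fgf13 had it on deposited FPKM, and none had it on corrected levels. The median log2 difference of the 9 was -0.52, beside -0.07 over all genes.

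Several measures moved with this sex difference. The summed corrected level of 5 neuron markers was 407 to 448 in control females and 327 to 349 in control males, and that of 5 markers of excitatory hippocampal neurons was 217 to 228 against 163 to 187. In the other direction, 5 astrocyte markers summed to 333 to 371 in control females and 456 to 527 in control males, and 5 oligodendrocyte markers to 245 to 335 against 488 to 621. The sums of microglia markers (26.1 to 31.6 against 35.7 to 40.6), thalamus and habenula markers (14.2 to 23.4 against 24.1 to 27.7) and blood markers (77.5 to 108 against 166 to 203) were also higher in every control male than in every control female. By gene, the log2 difference was positive for all 5 microglia markers and for 4 of 5 blood markers. Of the 2 thalamus and habenula markers tested, 1 was positive and 1 negative. None of these markers passed (limma). Choroid plexus markers ran from 11.2 to 5114 in control females and from 1238 to 3625 in control males. Sums of interneuron, oligodendrocyte precursor and vessel markers overlapped between the control sexes. Gene by gene, 2 of the 5 interneuron markers still passed as lower in control males (limma), beside 5.16% of all genes. Their median log2 difference was -0.51, with 4 negative and 1 positive. Of the neuron and the excitatory markers 2 of 5 each passed as lower, with medians of -0.31 and -0.43. Of the astrocyte and the oligodendrocyte markers 2 of 5 each passed as higher in control males (limma), beside 6.54% of all genes. Their medians were 0.41 and 0.77, and all 5 of each were positive. In bulk tissue fewer cells of a type and less RNA per cell cannot be told apart. With libraries scaled to the 5 neuron markers, an alternative added after these values were seen, Scn8a kept a difference of -0.51 (limma adjusted p = 0.00726). Scn3a had -0.20 (limma adjusted p = 0.357), and Fgf12 became higher in control males by 0.57 (limma adjusted p = 0.00226). In that fit 3368 of 14834 genes passed as higher in control males and 98 as lower, with the median of all genes at 0.25. Without background subtraction Scn8a had -0.26 (adjusted p = 0.569) and Scn3a 0.011 (adjusted p = 0.98), so both calls ended and the sign of Scn3a turned.

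Gene length also ran with the sex difference. Among genes with exons of over 8 kb, to which the 4 alpha subunits belong (11146 to 15766 bases), 12.6% passed as lower and 2.33% as higher in control males. Among genes of up to 2 kb of exon, 0.795% passed as lower and 10.6% as higher. Among genes spanning over 300 kb, as Fgf12, Fgf13 and Fgf14 do, 19.2% passed as lower, and none of these 3 did. Their log2 differences were 0.22 for Fgf12, -0.18 for Fgf13 and -0.52 for Fgf14. The part of length, of cell make-up or of the background in the result was not tested beyond these values.

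**Figure D3:**
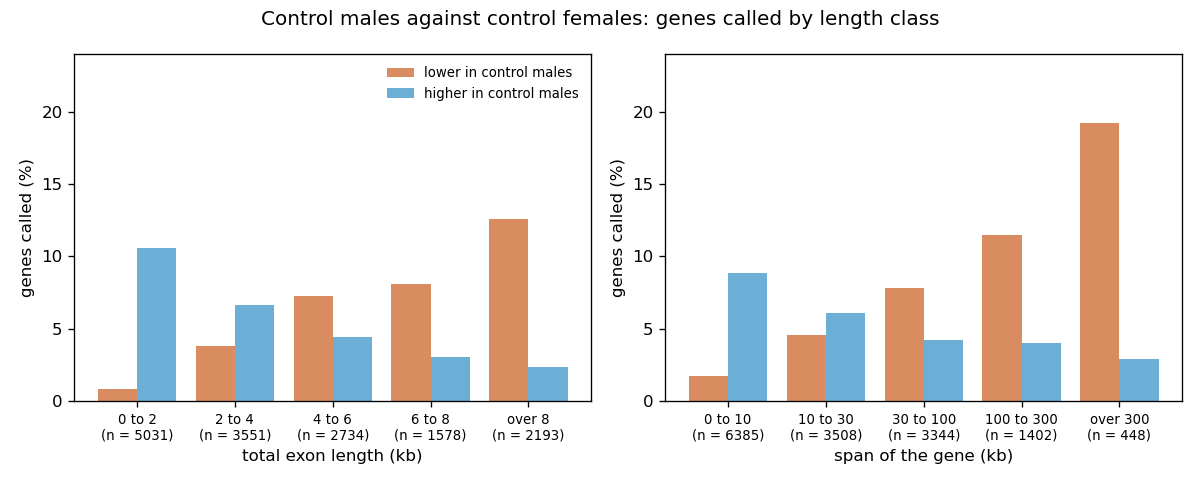
Share of genes passing the limma test between control males and control females, lower (orange) or higher (blue) in males, by total exon length and by gene span in kilobases, with the number of genes under each class. The share lower in males rises from 0.795% at up to 2 kb of exon to 12.6% over 8 kb, the class of the 4 alpha subunits.

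The tables also split each gene among its annotated transcripts, as estimated from the reads, and these shares of the gene's FPKM varied far more than the gene totals. Of 25 transcripts with a mean share of at least 10%, 0 passed between the genotypes over both sexes by exact permutation within sexes. The smallest permutation p was 0.035 (smallest adjusted p = 0.618), and 1 transcript had an unadjusted p under 0.05. These tests give no p under 0.005, so a lone transcript could not pass after adjustment over 25, whatever its difference. The lack of a call thus does not show that the shares were unchanged. Libraries of 1 group could give a transcript all of a gene or little of it.

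Scn2b is the plainest case. Its transcript Scn2b-202 (ENSMUST00000170998, with 4 exons) took 100% of the gene in 7 libraries. In the other 5, control females 1 and 3, cKO female 2, control male 1 and cKO male 2, it took 36.3% to 57.2%, and the 5-exon Scn2b-201 (ENSMUST00000093855) took the rest. Both have a coding sequence of 645 bases. Each group held both kinds of library.

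For Scn2a, the 26-exon transcript Scn2a-202 (ENSMUST00000100067) took 43.3% to 61.8% of the gene in 10 libraries and 0% in cKO females 2 and 3. In those 2 libraries Scn2a-205 (ENSMUST00000200829, 27 exons) took 49.1% and 38.5%, against 0.75% to 17.5% elsewhere. Scn2a-204 (ENSMUST00000144254, 11 exons) took 36.1% and 37.5% there and 10.6% to 24.6% elsewhere, and Scn2a-201 (ENSMUST00000028377) took 4.92% to 19.9% over all 12. These 2 libraries were also those of highest background, and cKO female 1 lay in the range of the controls. Scn2a-201, Scn2a-202 and Scn2a-205 each have a coding sequence of 6018 bases.

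Scn8a was the gene most divided among transcripts: its leading transcript Scn8a-205 (ENSMUST00000108910) had a mean share of 36.1%. That share was 34.5% to 82.3% in the 6 females and 10.3% to 35.4% in the 6 males. Scn8a-204 (ENSMUST00000108909) took 0.02% to 5.21% in the females and 7.20% to 66.2% in the males, and Scn8a-203 (ENSMUST00000108908) ranged from 2.53% to 50.8% with the sexes overlapping.

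Scn1a was divided among Scn1a-203 (ENSMUST00000112366, 12.8% to 70.1%) and Scn1a-201 (ENSMUST00000077489, 2.43% to 46.1%), among others. Its transcript Scn1a-202 (ENSMUST00000094951) took 61.0% in control female 2, 60.5% in control male 2 and 46.5% in cKO male 1, and at most 4.23% in the other 9 libraries. The retained-intron transcript Scn1a-205 (ENSMUST00000129508) took 8.62% to 16.1% in 10 libraries and 24.8% and 24.4% in cKO females 2 and 3. For Scn3a, Scn3a-202 (ENSMUST00000100069) led with a mean of 74.8% but had 2.74% in cKO female 2. The 1 transcript with an unadjusted p under 0.05 was the non-coding Scn3a-204 (ENSMUST00000155838), whose share was 6.67 percentage points higher in cKO over both sexes (exact permutation p = 0.035, adjusted p = 0.618). It was highest in cKO females 2 and 3, at 23.6% and 20.5%, the libraries of highest background.

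Among the factors, Fgf14 was the steadiest. Fgf14-202 (ENSMUST00000095529), with a coding sequence of 252 codons, took 74.9% to 99.8% of the gene in every library. Fgf14-201 (ENSMUST00000026631, 247 codons), with the pore-blocking start, took 0.17% to 12.2% in the 6 females and 7.89% to 25.1% in the 6 males. The 2 lowest values, 0.17% and 0.49%, were in cKO females 3 and 2.

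Fgf12 used its long form most. Fgf12-201 (ENSMUST00000100024, 243 codons) took 55.5% to 76.8% in 11 libraries but 7.24% in control male 3, where the 3-exon Fgf12-206 (ENSMUST00000232632) took 78.2%. The short form Fgf12-205 (ENSMUST00000232352, 181 codons) held 12.9% to 22.5% in all 12. Fgf11-202 (ENSMUST00000102585, 225 codons) took 74.1% to 99.9% in 11 libraries and 3.76% in cKO female 3, where Fgf11-201 (ENSMUST00000011285) took 96.2%. Fgf13-201 (ENSMUST00000033473, 245 codons) led in Fgf13 with a mean of 59.2% and a range of 32.5% to 84.2%, ahead of Fgf13-203 (ENSMUST00000119833, mean 15.3%) and Fgf13-202 (ENSMUST00000119306, mean 11.5%). Fgf13-202 was at 0.47% or less in 5 libraries and at 16.9% to 27.5% in the other 7.

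**Figure D4:**
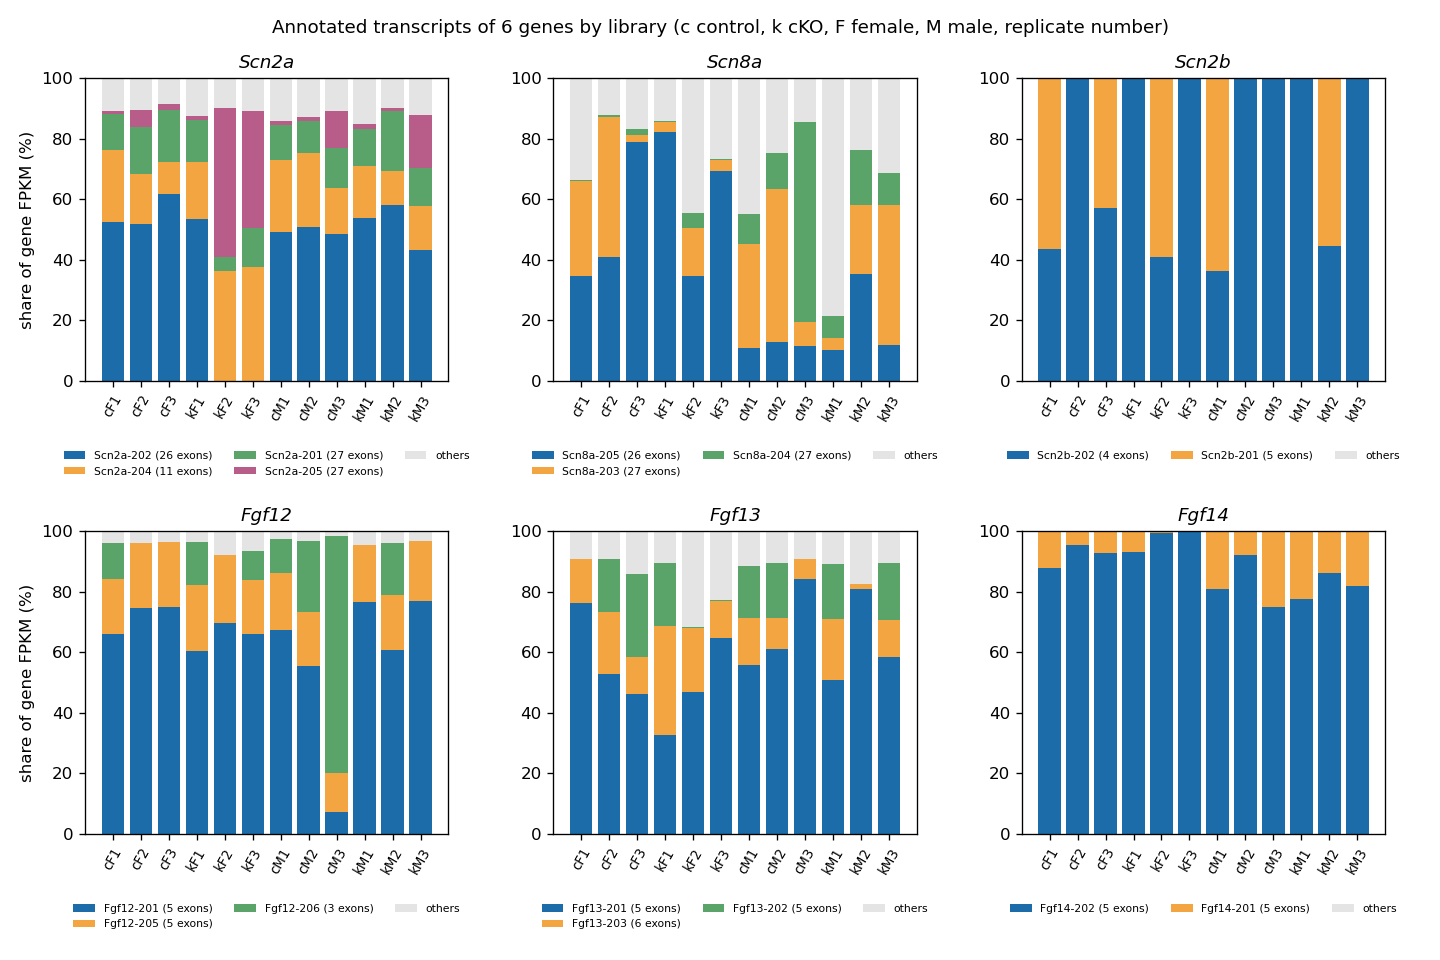
Stacked bars give the share (percent, axis from 0 to 100) of each gene's summed FPKM assigned to its main annotated transcripts in each of the 12 libraries (c control, k cKO, F female, M male, with the replicate number). Scn2b falls into 7 libraries at 100% of Scn2b-202 and 5 below, Scn2a-202 is at 0% in cKO females 2 and 3, and Fgf14-202 leads in all 12.

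Other genes of the channel complex were read against these. Of the other alpha subunits, Scn7a passed the filter on low values, with a mean corrected level of 0.781 in control and 2.23 in cKO females and of 0.512 in control and 0.603 in cKO males. Scn4a, Scn9a, Scn10a and Scn11a, known from muscle and peripheral neurons, did not pass it and stayed at group means of 0.306 or less. Scn7a, a sodium-sensing channel of glia, had a log2 difference of 0.56 for the mean of both sexes (limma adjusted p = 0.304), and its 2 highest libraries were cKO females 2 and 3. Of the other beta subunits, Scn3b and Scn4b passed in no comparison (limma). With females first and controls before cKO, Scn3b had 6.63, 8.80, 7.77 and 5.64 and Scn4b had 4.29, 5.05, 3.07 and 2.69. For the mean of both sexes the log2 difference was 0.01 for Scn3b (limma adjusted p = 0.985) and 0.03 for Scn4b (adjusted p = 0.923), and neither passed at an unadjusted p under 0.05.

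Of 10 proteins of the axon initial segment and node, 0 passed between the genotypes and 4 passed as lower in control males (limma), beside 5.16% of all genes. These were the cell adhesion molecule genes Cntn1 (log2 difference -0.57, adjusted p = 0.00822), Nfasc (-0.60, adjusted p = 0.0252) and Nrcam (-0.54, adjusted p = 0.0105), and Kcnq3 (-0.58, adjusted p = 0.00364), a potassium channel subunit held at the initial segment with the sodium channels. All 10 were negative, with a median of -0.43, beside -0.07 over all genes. Of 10 partners and regulators of the channels and factors, 0 passed between the genotypes and 2 passed as lower in control males (5.16% of all genes did). These 2 were the ubiquitin ligase genes Nedd4 (-0.37, limma adjusted p = 0.0136) and Nedd4l (-0.62, adjusted p = 0.0297).

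Among the 9 genes themselves, Scn2a and Scn3a had the closest profiles over the 12 libraries (Pearson r = 0.842 on log2 corrected levels), followed by Scn3a and Scn8a (0.829) and Scn8a and Fgf14 (0.804). Scn3a and Fgf12 were the furthest apart (-0.499). All points share the sexes, the background and the depth of the libraries, so these are descriptions. Over all genes tested, the 3 profiles most like that of Scn8a were Fry, Ube4b and Hdlbp, with r = 0.984 each. Scn3a was closest to Sphkap (0.975), Gria1 (0.966) and Vps18 (0.958), Scn2a to Klhl12 (0.946), Fbxo21 (0.940) and Dgke (0.939), and Scn1a to Nelfcd (0.945), Rhbdd1 and Nsfl1c (0.933 each). Scn2b was closest to Usp10 (0.934), Pias1 (0.923) and Poli (0.922). Among the factors, Fgf12 was closest to Dpp10 (0.970), Polr2m (0.891) and Kitl (0.887), and Fgf14 to Nr4a1 (0.937), Csnk1d (0.927) and Brpf1 (0.911). Fgf11 was closest to Tmem229b (0.905), Tmem2 (0.896) and Ubtf (0.895), and Fgf13 to Tmem255a (0.900), Dctn4 (0.899) and Arf4 (0.886).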

How the data were processed

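Per the submitters' processing notes, the authors used HISAT2 2.0.4 as aligner, StringTie to estimate transcripts, and GRCm38.p6 as genome build. Per the labels' protocols, the ScriptSeq Complete Gold kit was used on ribosome-depleted total RNA. Trimming, strand setting and annotation release: not given in the sources used here. Deposited tables hold FPKM and coverage (mean reads per base) for each annotated transcript of each of 12 libraries, and no read counts. Without strand, a gene and its antisense partner cannot be told apart.

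The deposited FPKM of each transcript, times its length, was summed per gene and taken per base of its merged GENCODE M21 exons (54495 of 54532 genes matched). The median over 1459 receptor genes of the library was subtracted, values below 0 were set to 0, and median-of-ratios factors came from protein-coding genes averaging 5 or more. The test took the 15087 genes that averaged 1 or more and reached 1 in 3 libraries. limma 3.58.1 (R 4.3.3, trend and robust) fitted log2(level + 0.5) on 4 group means, which understates the change of low genes. All tests are two-sided, at a threshold of 0.05. The limma p-values were adjusted over all genes tested by Benjamini-Hochberg. Transcript shares were tested by exact permutation within sexes and adjusted in the same way over the 25 transcripts tested. The permutation p of Atrx was not adjusted. The pipeline was tested on simulated data.

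All 9 genes are named in every comparison. Of each other list the text names the genes that passed, or else the 2 of smallest p, and those filtered out. It also names each transcript with a mean share of at least 10%, and the 3 genes of closest profile to each of the 9, predicted genes left out. Some members of these lists and some exon sequences are not reported here. The 9 genes, the lists and the background subtraction were chosen with earlier results of these data known. Alternatives were other pseudocounts, filters, scalings and no subtraction, a replicate block and leaving out libraries.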

Additional observations from a re-analysis of the deposited data

How the results depend on the processing

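Same-numbered control and cKO libraries did not deviate together (correlations -0.24 to 0.15 over 2000 genes). With a replicate block in limma, 0 of the 9 genes passed in each genotype comparison and 2 between the control sexes, as without it. All genes passing came to 13 in females, 1 in males, 5 for the mean of both, 0 for the difference between sexes and 1748 between control sexes. No transcript share passed with the replicate block (0 of 25). That permutation test gives no p under 0.0312, so a few changed transcripts could not pass after adjustment over 25. Atrx had a mean difference of -16.5 FPKM with the replicate block (exact permutation p = 0.0312, the smallest it can give).

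Leaving out 1 library each time, the 9 genes had 0 to 1 calls in females, 0 to 2 for the mean of both sexes and 1 to 4 between control sexes, with none in males or for the difference between sexes. The calls between genotypes came without cKO female 1: Fgf11 in females (-0.98) and, for the mean of both, Fgf11 (-0.73, limma adjusted p = 0.00544) and Scn1a (0.20, adjusted p = 0.0316). Over all genes these fits called 1 to 5768 in females, 1 to 2 in males, 3 to 4430 for the mean, 0 to 2907 for the difference and 532 to 2777 between control sexes. The highest count of each but the male one was without cKO female 1, and the lowest between control sexes without control male 3. Scn8a passed between control sexes in all 12 such fits (-0.91 to -0.77, adjusted p 0.0014 to 0.0169), and Scn3a in 5.

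Between control sexes 0 of the 9 passed without subtraction, 0 without scaling factors, 4 with a filter at 5 and 1 with no filter. Scn8a passed in 19 of 21 alternatives, failing without subtraction and without scaling (-0.88, limma adjusted p = 0.117). Scn3a passed in 10 of 21 and had 0.011 (adjusted p = 0.98), the other sign, without subtraction. Over all genes, no subtraction called 0 in females, 0 in males, 0 for the mean and 106 between control sexes, and no scaling called 4, 0, 0 and 15. A filter at 5 called 7 in females and 2 in males, and no filter 30 in females and 719 between control sexes. Without cKO females 2 and 3 the mean called 10. Scaling to neuron markers called 0 in males and 3466 between control sexes, 3368 higher and 98 lower, with the median of all genes at 0.25 in place of -0.07. Subtraction set the direction of several uncalled values: without it all 9 genes were negative in females (-1.31 to -0.65, limma adjusted p 0.0893 to 0.179) while the median of all genes was 0.33. Without scaling factors that median was -0.46 in females and all 9 were negative too (-1.25 to -0.11). The causes were not tested. Fgf11 could not be fitted with a filter at 5. The tables hold no counts, so no counting interval is given for transcript shares.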

Other observations

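Scn7a, a sodium-sensing channel of glia, had its highest corrected levels in 2 libraries of 1 group, with 2.90 and 3.09 in cKO females 2 and 3 and 0.36 to 1.21 in the other 10. The background in those 2 libraries was 1.97 and 2.25, against at most 0.602 elsewhere, and its part in these values was not tested.

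Kcnq3, a potassium channel subunit of the axon initial segment, had 16.3, 15.0 and 14.8 in control females and 13.2, 12.2 and 12.6 in cKO females. In males it had 10.04, 10.6 and 9.83 in controls and 8.24, 9.37 and 7.54 in cKO. All cKO libraries lay below all controls of their sex, and the log2 difference for the mean of both sexes was -0.27 (limma adjusted p = 0.222). Over all genes tested, 7.49% had the cKO females and 4.66% the cKO males below their controls without overlap. These shares are for each sex alone, and the share of genes with both patterns at once was not counted.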
